A study of Camellia reticulata with 27 samples.

Results

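Zinc finger transcripts of the C2C2, C2H2 and C3H families were followed through petal development in 3 cultivars of Camellia reticulata. The study's co-expression table pairs 49 transcription factors with co-expressed transcripts of the anthocyanin pathway or of a few other functions, and 5 of the factors belong to these families: 1 C2C2, 2 C2H2 and 2 C3H. All 5 were found among the 225938 transcripts measured, and none is also listed as a target. They are named C2C2 (Cluster-74798.6), C2H2_1 (Cluster-15580.0), C2H2_2 (Cluster-99976.1), C3H_1 (Cluster-103202.38) and C3H_2 (Cluster-103202.42). The last digit only tells the 2 members of a pair apart.

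Petals of garden-grown plants were sequenced in 27 libraries, 3 for each of 9 groups. Tongzimian (TZM) has white petals and Shizitou (SZT) red petals, and both were sampled as buds and at full bloom. Manao (MN, Damanao in the paper), a bud variant of SZT with petals of mixed white and red, gave samples of an early bud (bud stage 1), a late bud (bud stage 3) and the initial flowering stage, and its white and red petal regions were taken apart at full bloom. The labels name no treatment, no genotype beyond the cultivar and no plant age. Nothing in the sources used here says that replicates came from separate plants, so the p-values measure the spread between these libraries, which may be partly technical. Levels are FPKM, fragments scaled by transcript length and by the library's mapped total. In such bulk samples fewer cells of a type and less RNA per cell cannot be told apart.

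Zinc finger proteins fold a short stretch of chain around a zinc ion held by cysteines alone or by cysteines and histidines, and the families are named for those residues. Plant C2C2 proteins include the DOF, GATA and CONSTANS-like factors, which bind DNA and are known from light responses, flowering time and growth. C2H2 proteins bind DNA and many of them act in floral organ development or stress responses, often as repressors. C3H proteins, with the CCCH finger, often bind RNA and act on messenger RNA turnover, although some regulate transcription. The table gives the family and no subfamily, so the role of each transcript in Camellia is not known from these data. The targets paired with the 5 members are anthocyanin enzymes. Chalcone synthase (CHS) makes the first flavonoid precursor, flavanone 3-hydroxylase (F3H) and dihydroflavonol reductase (DFR) carry it on, and anthocyanidin synthase (ANS) forms the coloured product. Anthocyanidin reductase (ANR) turns that product into colourless epicatechin.

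The table pairs C2C2 and C2H2_2 with 6 CHS transcripts each, C2H2_1 with 3 DFR transcripts, and both C3H transcripts with 6 CHS and 6 F3H transcripts. The study chose these pairs from correlations over mean levels of these same libraries. The CHS sum had group means from 5276 to 8331 FPKM in buds and from 24.2 to 227 at full bloom, so a high level of the members in buds is a property of the choice. The CHS sum at full bloom was also lower in white than in red petals, with means of 24.2 (MN white) and 41.6 (TZM) against 152 (MN red) and 227 (SZT). Counts and tests of the members between stages, cultivars or colours therefore describe the size of differences and are not independent evidence of their direction.

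All 5 transcripts were high in buds and low at full bloom in every cultivar. Each passed the expression filter, a mean of at least 5 FPKM in at least 1 group, and none was at 0 in any library. For each of them every one of the 15 libraries from buds and initial flowering lay above every one of the 12 full-bloom libraries. Such a separation held for 4.95% of the 55099 transcripts tested, for 27 of 41 other factors of the table, which leave out 3 that it also lists as targets, and for 13 of its 20 enzyme transcripts.

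**Figure D1:**
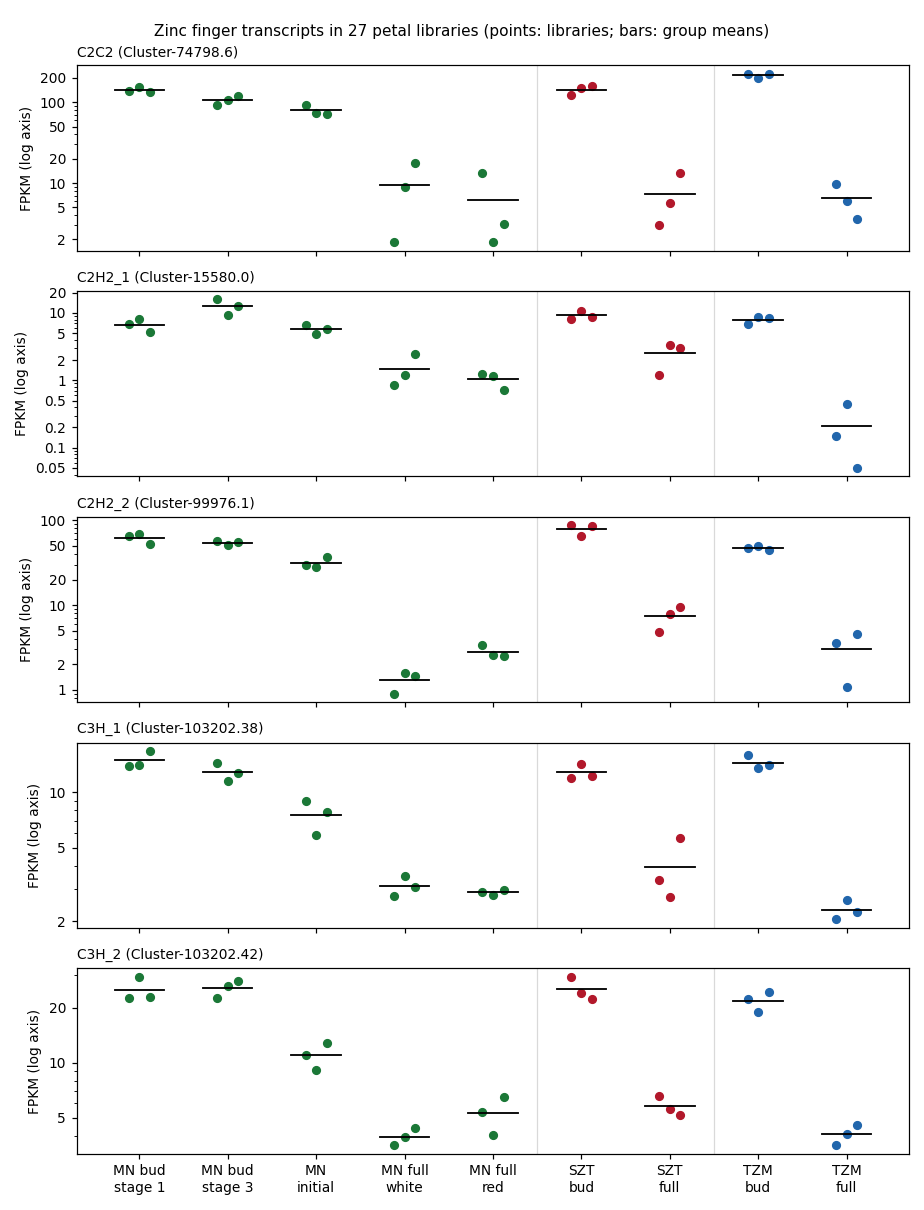
FPKM of each zinc finger transcript (log axis, a range of its own in each panel) in the 27 libraries by group. Points are libraries and bars are group means; green is MN, red SZT and blue TZM. Every bud and initial-flowering point lies above every full-bloom point in all 5 panels, and the full-bloom points of C2C2 are scattered in all 4 groups.

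C2C2 was the most abundant member in buds and the one with the largest spread within groups on the log2 scale. In TZM buds it stood at 222.5, 198 and 225 FPKM, in SZT buds at 121, 149 and 157, in MN at bud stage 1 at 139.5, 153 and 134, and at bud stage 3 at 91.1, 106 and 119. The TZM buds were the highest, and their range did not overlap that of any other group. At MN initial flowering the values were 92.3, 74.4 and 70.8 FPKM, and the range overlapped that of bud stage 3.

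At full bloom C2C2 was scattered in every group. The values were 1.86, 9.0 and 17.5 FPKM in the MN white region, 13.5, 1.85 and 3.13 in the red region, 3.01, 5.59 and 13.3 in SZT, and 9.77, 6.01 and 3.63 in TZM. No order of these 4 groups could be read, since all their ranges overlapped. Of the 8 pairs of groups that were neighbours in the order of means, 3 had separate ranges: TZM buds above MN bud stage 1, SZT buds above MN bud stage 3, and MN initial flowering above the MN white region.

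C2H2_1, the factor listed with DFR, was the least abundant member and had its highest mean at MN bud stage 3. It stood at 6.78, 8.17 and 5.21 FPKM at bud stage 1 and at 15.9, 9.39 and 12.5 at bud stage 3. The ranges did not overlap, but the difference did not pass the test across all transcripts (log2 difference 0.81, SE 0.27, adjusted p = 0.104, limma). SZT buds had 8.20, 10.6 and 8.75 FPKM and TZM buds 6.75, 8.84 and 8.36. MN initial flowering had 6.70, 4.83 and 5.81 FPKM.

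The lowest C2H2_1 values of the series were those of TZM at full bloom, at 0.15, 0.44 and 0.05 FPKM. SZT at full bloom had 1.18, 3.35 and 3.03 FPKM, the MN white region 0.84, 1.19 and 2.46, and the MN red region 1.24, 1.17 and 0.72. All 9 of those libraries lay above the 3 of TZM. Only 2 of the 8 neighbouring pairs had separate ranges, MN initial flowering above SZT at full bloom and the MN red region above TZM at full bloom.

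C2H2_2, a factor listed with CHS, was the member whose group ranges were most often apart. SZT buds had 87.5, 64.4 and 86.1 FPKM, MN bud stage 1 had 66.1, 69.2 and 52.2, MN bud stage 3 had 56.5, 51.6 and 55.6, and TZM buds had 47.4, 49.7 and 44.4. The SZT and TZM bud ranges did not overlap. MN initial flowering had 29.5, 28.5 and 37.1 FPKM, below every bud library.

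At full bloom C2H2_2 was highest in red SZT, with 4.86, 7.77 and 9.61 FPKM, and lowest in the MN white region, with 0.90, 1.56 and 1.45. The MN red region had 3.41, 2.57 and 2.48 FPKM and white TZM 3.57, 1.08 and 4.56. SZT lay above all other full-bloom libraries, the MN red region above the MN white region, and TZM overlapped both MN regions. Of the 8 neighbouring pairs, 5 had separate ranges.

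The 2 C3H transcripts carry the same cluster number and had nearly the same profile. C3H_1 had 13.9, 14.1 and 16.8 FPKM at MN bud stage 1, 14.4, 11.5 and 12.8 at bud stage 3, 12.01, 14.2 and 12.2 in SZT buds and 16.0, 13.6 and 14.0 in TZM buds. MN initial flowering had 8.92, 5.85 and 7.81 FPKM. At full bloom it had 2.75, 3.52 and 3.05 in the MN white region, 2.87, 2.77 and 2.94 in the red region, 3.35, 2.70 and 5.68 in SZT and 2.04, 2.59 and 2.23 in TZM. The 4 bud groups overlapped and the initial stage stood alone. At full bloom 1 SZT library stood above the rest, and every TZM library lay below every library of the other groups.

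C3H_2 had 22.6, 29.5 and 22.8 FPKM at MN bud stage 1, 22.6, 26.3 and 27.9 at bud stage 3, 29.4, 24.0 and 22.3 in SZT buds and 22.2, 19.0 and 24.4 in TZM buds. MN initial flowering had 11, 9.11 and 12.9 FPKM. At full bloom it had 3.55, 3.93 and 4.40 in the MN white region, 5.41, 4.06 and 6.47 in the red region, 6.58, 5.60 and 5.16 in SZT and 3.56, 4.09 and 4.58 in TZM. The bud groups again overlapped, and at full bloom every SZT library lay above every TZM and MN white library. C3H_2 was above C3H_1 in 26 of 27 libraries, with a ratio from 0.909 to 2.44 and a median of 1.65; both values are per length, and the exception was replicate 3 of SZT at full bloom. If these transcripts are close in sequence, the mapping could have split reads between them, which was not tested.

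The first comparison asks how expression changed from bud to full bloom in the cultivars of uniform colour. In SZT all 5 members fell, against 50% of all transcripts called in either direction and 30.8% that fell. The bud mean was 19.5 times the full-bloom mean for C2C2, 10.7 for C2H2_2, 4.36 for C3H_2, 3.64 for C2H2_1 and 3.28 for C3H_1. On the log2(FPKM + 1) scale, which understates changes of low transcripts, C2C2 fell by 4.30 (SE 0.56, adjusted p = 1.84e-06, limma) and C3H_1, the smallest change, fell by 1.54 (SE 0.18, adjusted p = 5.68e-07). The median of all transcripts moved by -0.23 in this comparison.

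In TZM all 5 members also fell, against 38.5% of all transcripts called and 23.6% that fell. The bud mean was 37.4 times the full-bloom mean for C2H2_1, 33.3 for C2C2, 15.4 for C2H2_2, 6.35 for C3H_1 and 5.36 for C3H_2. The fold of C2H2_1 rests on full-bloom values under 0.5 FPKM, where rounding to 2 decimals and the unknown number of reads weigh most. On the log2 scale C2H2_1 fell by 2.89 (SE 0.27, adjusted p = 3.48e-08, limma) and C2C2 by 4.94 (SE 0.56, adjusted p = 4.66e-07). Of the 41 other factors, 37 fell in SZT and 40 in TZM, with a median difference of -2.38 and -2.27, and 1 rose in each. Of the 20 enzyme transcripts, 18 fell in SZT and 15 in TZM, where 2 rose.

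The fall was tested for a difference between the cultivars. For 2 of the 5 members it was deeper in TZM, against 36.4% of all transcripts for which the changes differed. The change was more negative in TZM for 16.9% of them all. The change of C2H2_1 was the more negative one in TZM (log2 difference of changes -1.30, SE 0.39, adjusted p = 0.0114, limma), and this call held without any single library. For C3H_1 the difference of changes was -0.70 (SE 0.26, adjusted p = 0.0386). It missed the threshold without any 1 of 7 libraries, namely SZT bud replicates 1 and 3, SZT full-bloom replicate 3, TZM bud replicates 1 and 3, and TZM full-bloom replicates 1 and 3. Without SZT full-bloom replicate 3 it was -0.46 (adjusted p = 0.133), and it also missed the threshold without a filter (0.0873) and in the fit on those 12 libraries alone (0.104). For C2C2 the interval ran from -2.29 to 1.02, for C2H2_2 from -1.18 to 0.39 and for C3H_2 from -0.72 to 0.27.

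The second comparison follows MN, whose white areas are small in the early bud and enlarge until initial flowering. From bud stage 1 to bud stage 3 limma called 0 members, against 3.97% of all transcripts, and 1 member (C2H2_1, above) had an unadjusted p under 0.05. In the same interval 7 of the 20 enzyme transcripts and 3 of the 41 other factors rose and none of either list fell. The C2C2 mean at bud stage 3 was 0.742 times that at stage 1, and those of C2H2_2 and both C3H transcripts lay from 0.864 to 1.03 times.

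From bud stage 3 to initial flowering 4 of the 5 members fell, against 36.8% of all transcripts called and 20.8% that fell. C3H_2 fell by 1.16 on the log2 scale (SE 0.17, adjusted p = 1.24e-05, limma), C2H2_1 by 0.98 (SE 0.27, adjusted p = 0.00676), C3H_1 by 0.71 (SE 0.18, adjusted p = 0.00382) and C2H2_2 by 0.77 (SE 0.27, adjusted p = 0.0269). C2C2 had a difference of -0.41 with an interval from -1.58 to 0.76, where its spread includes the scattered full-bloom libraries. In a limma fit on these 6 libraries alone all 5 members had an unadjusted p under 0.05, and all but C2C2 were called. The C2H2_2 call was lost without replicate 1 or 3 of bud stage 3 or replicate 1 or 2 of initial flowering, with adjusted p values from 0.0628 to 0.0879, and also without a filter (0.0622) or with median-ratio scaling (0.0892). With a pseudocount of 0.01 only both C3H transcripts passed.

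The zinc finger transcripts kept more of their bud level at initial flowering than the enzymes did, and so did the other factors by their median. The median log2 difference of this step was -0.77 for the members, -1.36 for the 41 other factors and -2.85 for the 20 enzyme transcripts. Over all transcripts it was -0.01. In percent of the mean at bud stage 3, C2C2 kept 75.0% ± 10.9 (SD, n = 3), C3H_1 58.4% ± 12.1, C2H2_2 58.1% ± 8.64, C2H2_1 45.9% ± 7.43 and C3H_2 42.9% ± 7.30. The summed transcripts of ANS kept 18.1% ± 5.32, of CHS 16.0% ± 2.64, of F3H 10.9% ± 3.72 and of DFR 8.50% ± 1.44. The lowest member library stood at 35.6% and the highest enzyme library at 23.2%, so no member library of that stage overlapped any enzyme library. At full bloom they did overlap: the lowest member and highest enzyme library stood at 1.65% and 4.77% in the MN white region, 1.75% and 5.60% in the MN red region, 2.12% and 7.33% of the bud mean in SZT, and 0.626% and 2.74% in TZM. These shares are a description of 3 libraries per stage and were not tested as a difference.

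**Figure D2:**
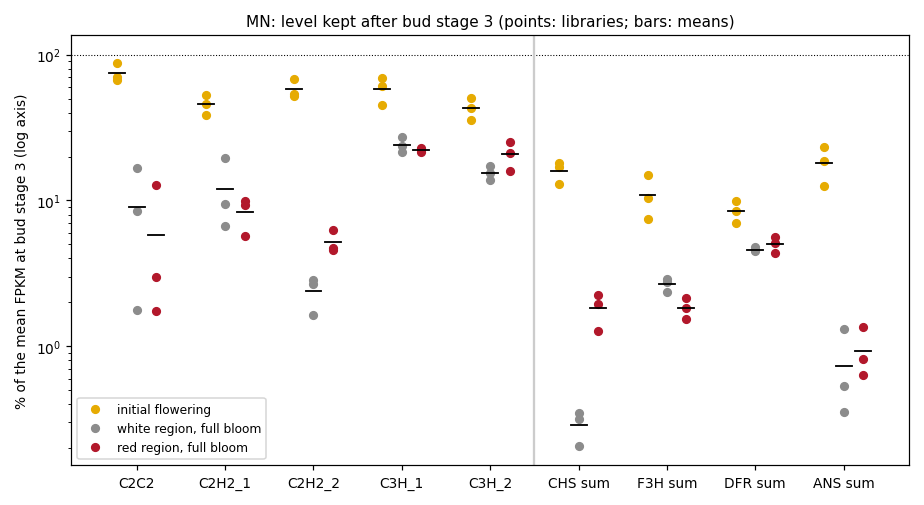
Level kept in MN after bud stage 3, as percent of the bud stage 3 mean FPKM (log axis), for the 5 zinc finger transcripts and for the summed transcripts of 4 enzymes. Points are libraries and bars are means; at initial flowering the member points lie from 35.6% to 87.4% and the enzyme points from 7.05% to 23.2%.

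From initial flowering to full bloom all 5 members fell in both petal regions. For the white region this stood against 32% of all transcripts called and 20.5% that fell, and for the red region against 30.2% and 19.1%. C2H2_2 kept 4.11% (white) and 8.89% (red) of its initial level, C2C2 11.9% and 7.78%, and C2H2_1 25.9% and 18.1%. Both C3H transcripts kept the most, C3H_1 41.3% and 38.0% and C3H_2 36.0% and 48.4%. In the white region the log2 difference ran from -3.83 for C2H2_2 (adjusted p = 1.50e-09, limma) to -1.04 for C3H_1 (adjusted p = 0.000154). In the red region it ran from -3.84 for C2C2 (adjusted p = 2.22e-05, limma) to -0.93 for C3H_2 (adjusted p = 0.00022).

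**Figure D3:**
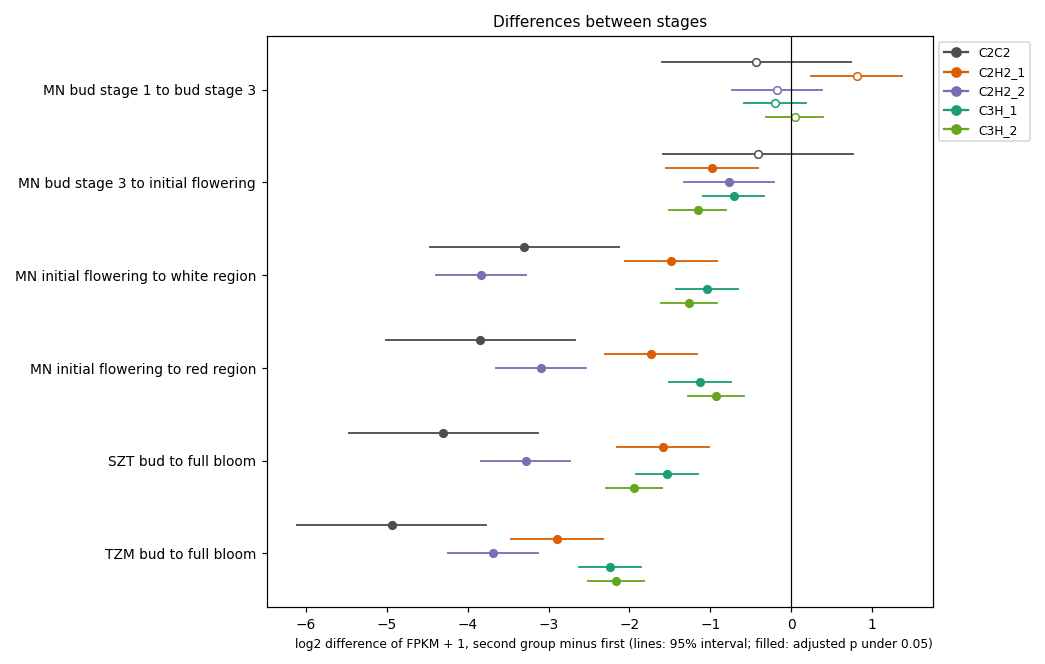
Differences of log2(FPKM + 1) between stages for the 5 zinc finger transcripts, later stage minus earlier. Points are estimates of the fit across all transcripts, filled where the adjusted p is under 0.05, and lines are 95% intervals. All 20 points of the 4 comparisons that end at full bloom are filled and below 0, and C2C2 has the widest intervals.

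The comparison of the white and red regions of MN petals at full bloom asks what differs with colour inside 1 cultivar. limma called 0 members, against 0.167% of all transcripts, and 1 member had an unadjusted p under 0.05. That member was C2H2_2, whose mean was 2.16 times as high in the red region without overlap (log2 difference 0.73, interval 0.18 to 1.29, adjusted p = 0.626). This order holds for that row only. The sum of both rows under Cluster-99976, its number, had means of 5.16 (white) and 4.31 FPKM (red), with overlapping ranges. C3H_2 had a difference of 0.33 with an interval from -0.02 to 0.68. For C2C2 the interval ran from -1.71 to 0.63, for C2H2_1 from -0.81 to 0.32 and for C3H_1 from -0.47 to 0.30. The CHS sum was 6.30 times as high in the red region, and 3 of 20 enzyme transcripts and 0 of 41 other factors rose in it.

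White TZM and red SZT were compared at each stage. In buds 1 of the 5 members, C2H2_2, was lower in TZM, against 36.4% of all transcripts called and 20.2% that were lower. Its difference was -0.73 (SE 0.27, adjusted p = 0.0381, limma), and the call was lost without any 1 of SZT bud replicates 1 and 3 or the 3 TZM bud libraries, with adjusted p values from 0.0655 to 0.116. It was also lost without a filter (0.0736), with median-ratio scaling (0.103) and with a pseudocount of 0.01 (0.134). C2C2 was higher in every TZM bud library than in any SZT bud library, yet its difference of 0.60 missed the threshold in the fit over all libraries (interval -0.57 to 1.77, adjusted p = 0.454). Its spread there includes the scattered full-bloom libraries. In a fit on the 6 bud libraries alone C2C2 passed (difference 0.60, SE 0.15, adjusted p = 0.0243, limma).

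At full bloom 3 of the 5 members were lower in TZM, against 41.3% of all transcripts called and 20.7% that were lower. C2H2_1 was lower by 1.49 on the log2 scale (difference -1.49, SE 0.27, adjusted p = 0.000162, limma), C2H2_2 by 1.12 (difference -1.12, SE 0.27, adjusted p = 0.00187) and C3H_1 by 0.54 (difference -0.54, SE 0.18, adjusted p = 0.0231). C3H_2 had a difference of -0.42 (SE 0.17, adjusted p = 0.0524) and C2C2 one of -0.04 with an interval from -1.21 to 1.13. Without TZM full-bloom replicate 2 the C2H2_2 difference was -0.70 (adjusted p = 0.0157). The C3H_1 call was lost without SZT full-bloom replicate 3, where the difference was -0.29 (adjusted p = 0.2), and without TZM full-bloom replicate 1 or 3 (adjusted p = 0.0689 and 0.056). In the limma fit on the 6 full-bloom libraries alone C2H2_1 and C3H_1 were under the filter, and C2H2_2 missed the threshold (adjusted p = 0.0896). Of the 41 other factors, 17 were lower and 2 higher in TZM buds, and 14 were lower at full bloom.

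**Figure D4:**
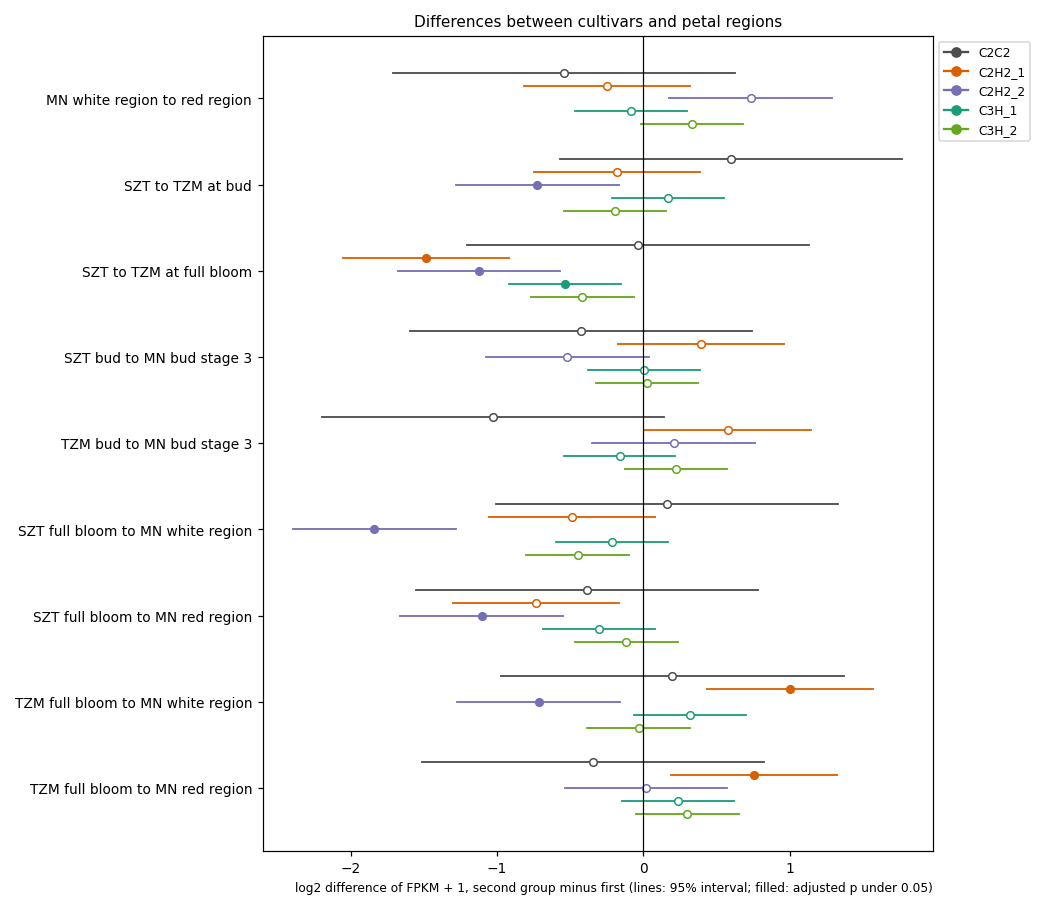
Differences of log2(FPKM + 1) between cultivars and petal regions for the 5 zinc finger transcripts, second group minus first. Points are estimates, filled where the adjusted p is under 0.05, and lines are 95% intervals. C2H2_2 is filled in 5 of the 9 comparisons and C2C2 in none.

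MN was compared with its parent SZT and with TZM. In buds at stage 3 limma called 0 members against SZT, where 3.86% of all transcripts were called and no member had an unadjusted p under 0.05. Against TZM it also called 0 members, with 41.1% of all transcripts called and 1 member, C2H2_1, at an unadjusted p under 0.05 (log2 difference 0.58, interval 0.01 to 1.14). C2C2 was 1.03 lower in MN than in TZM buds on that scale (difference -1.03, interval -2.20 to 0.14), and it passed in a fit on those 6 libraries alone (adjusted p = 0.00173, limma). In that comparison 20 of the 41 other factors and 11 of the 20 enzyme transcripts were higher in MN, against 22.4% of all transcripts.

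At full bloom the MN white region had less C2H2_2 than SZT (difference -1.84, SE 0.27, adjusted p = 7.08e-05, limma). This was 1 member of 5, against 15% of all transcripts called and 8.35% that were lower. The MN red region also had less C2H2_2 than SZT (difference -1.11, SE 0.27, adjusted p = 0.00743, limma), 1 of 5 against 13.6% called and 7.41% lower. That limma call was lost without SZT full-bloom replicate 3 (adjusted p = 0.0534) and in the fit on the compared libraries alone (0.0746). Without SZT full-bloom replicate 1, C2H2_1 also passed there (difference -1.04, adjusted p = 0.0119). In the fit on the compared libraries alone C2H2_1 was under the filter. Both comparisons share the SZT libraries.

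Against TZM at full bloom the MN white region had more C2H2_1 (difference 1.0, SE 0.27, adjusted p = 0.00673, limma) and less C2H2_2 (difference -0.72, SE 0.27, adjusted p = 0.0428), 2 of 5 members against 34.1% of all transcripts called. The MN red region had more C2H2_1 (difference 0.76, SE 0.27, adjusted p = 0.0395, limma), 1 of 5 against 31.2% called and 15% higher. The C2H2_2 call was lost without any 1 of the 3 MN white libraries or TZM replicates 1 and 3 (adjusted p from 0.0552 to 0.257), without a filter (0.0873) and with median-ratio scaling (0.0739). Its difference was -0.43 without TZM replicate 3 and -1.14 without TZM replicate 2. The sum of both rows under Cluster-99976, the number of C2H2_2, went the other way. Its means were 5.16 FPKM in the MN white region and 3.07 in TZM, with overlapping ranges. The C2H2_1 call was lost for the white region without MN white replicate 3 (adjusted p = 0.0548), and for the red region without MN red replicate 1 or 2 or TZM replicate 1 or 3 (adjusted p from 0.0851 to 0.128) and without a filter (0.0716). In fits on the compared libraries alone both C2H2 transcripts were under the filter. They entered these comparisons through their higher levels in other groups.

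All white full-bloom petals were also set against all red ones, 6 libraries of TZM and the MN white region against 6 of SZT and the MN red region. Colour and cultivar are mixed in these groups and cannot be told apart. C2H2_1, C2H2_2 and C3H_2 were lower in white petals, 3 of 5 members against 26.5% of all transcripts called and 13.8% that were lower. Of the 41 other factors 12 were lower. All members but C2H2_1 had been paired with CHS, whose sum was lower in both white groups, so nothing is read from the count of members. The DFR sum, paired with C2H2_1, had means of 70.4 (MN white) and 9.41 (TZM) against 77.0 (MN red) and 46.8 FPKM (SZT). The F3H sum, paired with both C3H transcripts, had 86.9 and 34.4 against 59.4 and 82.5 FPKM in the same order. The differences were -0.93 for C2H2_2 (adjusted p = 0.000946, limma), -0.62 for C2H2_1 (adjusted p = 0.0209) and -0.38 for C3H_2 (adjusted p = 0.0232).

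Within that comparison the white and red ranges overlapped for every member. C2H2_2 ran from 0.90 to 4.56 FPKM in white petals (median 1.51) and from 2.48 to 9.61 in red ones (median 4.14), and C3H_2 from 3.55 to 4.58 (median 4.01) and from 4.06 to 6.58 (median 5.51). Over all 924 regroupings of the 12 libraries, which treat libraries of 4 groups as exchangeable, two-sided exact permutation p-values were 0.00866 for C3H_2, 0.0346 for C2H2_2, 0.108 for C2H2_1, 0.184 for C3H_1 and 0.652 for C2C2, before any adjustment. They describe these libraries, and members chosen for following CHS or DFR are no independent test of colour. The C2H2_1 call of limma was lost without MN white replicate 1, SZT replicate 2 or 3, or TZM replicate 3 (adjusted p from 0.0507 to 0.0644). In the fit on these 12 libraries alone C2H2_1 was under the filter, which it passed only through buds and initial flowering. The limma call of C3H_2 was lost without MN white replicate 1, MN red replicate 3 or SZT replicate 1 (adjusted p from 0.0551 to 0.0736), without a filter (0.06) and in the fit on those libraries alone (0.0771).

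How closely replicates of a group agreed differed between the members. The SD within groups on the log2 scale was 0.73 for C2C2, larger than that of 70.9% of the transcripts tested, where transcripts of like level had a median of 0.27. It was 0.32 for C2H2_1, 0.33 for C2H2_2, 0.20 for C3H_1 and 0.19 for C3H_2, and the C3H values were larger than those of only 9.37% and 7.61% of the transcripts tested.

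Over the 9 group means of log2(FPKM + 1) the 10 pairs of members had Pearson's r from 0.916 to 0.986, with the C3H pair the highest, which follows in part from their common choice. After the group means were removed, r over the 27 libraries lay between -0.10 and 0.53, with a median of 0.13. For the C3H pair it was -0.01, and the highest was that of C2C2 with C2H2_1. All points share libraries, and the values are given as a description.

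In SZT buds members and enzymes differed in 1 library. Replicate 3 had a DFR sum of 145 FPKM, against 1019 and 833 in replicates 1 and 2, a CHS sum of 3906 against 8275 and 9482, and an ANS sum of 571 against 1893 and 2323. These are 15.7%, 44.0% and 27.1% of the mean of the other replicates, and the F3H sum was at 51.8%. In the same library C2C2 stood at 116%, C2H2_2 at 113%, C3H_1 at 93.4%, C2H2_1 at 93.1% and C3H_2 at 83.4%. This library was picked after its values were seen, and the share of all transcripts that kept their level in it was not computed. Over all 27 libraries, with group means removed, r of C2H2_1 was -0.0008 with the DFR sum and 0.57 with the ANS sum. Over all members and the CHS, F3H, DFR and ANS sums, r ran from -0.26 (C2H2_2 with F3H) to 0.60 (C2C2 with ANS).

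The transcripts most like each member over the 9 group means carry no name in the sources used here. The 3 most like C2C2 were Cluster-63841.0, Cluster-54897.1 and Cluster-77334.0, with r from 0.993 to 0.997. For C2H2_1 they were Cluster-104280.0, Cluster-59015.4 and Cluster-89946.9 (0.985 to 0.987). For C2H2_2 they were Cluster-99314.5, Cluster-93808.0 and Cluster-90383.1, with r of 0.996 to 0.997. For C3H_1 they were Cluster-93536.0, Cluster-99314.0 and Cluster-65175.0 (0.996 to 0.998), and for C3H_2 Cluster-98523.9, Cluster-58414.4 and Cluster-32175.3 (0.996 to 0.997). An r of at least 0.95 was shared by 295 of 55094 transcripts for C2H2_1, by 683 for C2C2, 869 for C2H2_2, 996 for C3H_1 and 1474 for C3H_2, which is 0.535% to 2.68%. With a pseudocount of 0.01, 1 of the 3 was kept for C2C2, C2H2_2 and C3H_1, and 0 for C2H2_1 and C3H_2.

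Transcripts numbered within the same assembly cluster as C2C2 mostly moved the other way in SZT. Cluster-74798 has 15 rows, and 9 of the 14 others passed the filter. From bud to full bloom in SZT 6 of these 9 rose and 2 fell, where 19.2% of all transcripts rose and 30.8% fell. In TZM none rose and 2 fell, where 14.9% rose and 23.6% fell. From MN bud stage 3 to initial flowering 5 rose and none fell, where 16% rose and 20.8% fell. The most abundant was Cluster-74798.13, at 40.6, 88.8 and 13.5 FPKM in SZT buds and 166, 477 and 423 at SZT full bloom (log2 difference 3.10, SE 0.84, adjusted p = 0.00414, limma). The next was Cluster-74798.2, at 18.6, 41.5 and 5.24 FPKM in SZT buds and 118, 308 and 276 at full bloom (log2 difference 3.65, SE 0.83, adjusted p = 0.000929). The bud and full-bloom ranges of both were apart.

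C2C2 made up a changing part of its cluster. Its share of the summed FPKM was 54.7% at MN bud stage 1, 43.7% at bud stage 3, 40.8% in SZT buds and 39.0% in TZM buds. It was 13.0% at MN initial flowering, 3.29% in the MN white region, 1.71% in the red region, 0.775% in SZT and 8.13% in TZM at full bloom. The sources used here do not say what a shared cluster number stands for, and reads may be divided among such rows.

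The C3H transcripts were a small part of a large cluster. Cluster-103202 has 43 rows, 17 of the 41 others passed the filter, and in none of these did every earlier library lie above every full-bloom library, while in 1 every earlier library lay below. From bud to full bloom 4 of the 17 rose and 6 fell in SZT, and 5 rose and 3 fell in TZM, beside the shares of all transcripts given above for SZT and TZM. Cluster-103202.26, the most abundant, had 39.0, 52.6 and 41.4 FPKM in TZM buds and 86.1, 113 and 103 at TZM full bloom (log2 difference 1.17, SE 0.20, adjusted p = 7.17e-05, limma). Cluster-103202.40 had 152, 60.9 and 158 FPKM in SZT buds, 196, 88.4 and 105 at MN bud stage 3, and 47.4, 24.01 and 0 at bud stage 1. It was also listed at 0 in every library of initial flowering and full bloom and in 2 of 3 TZM buds.

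**Figure D5:**
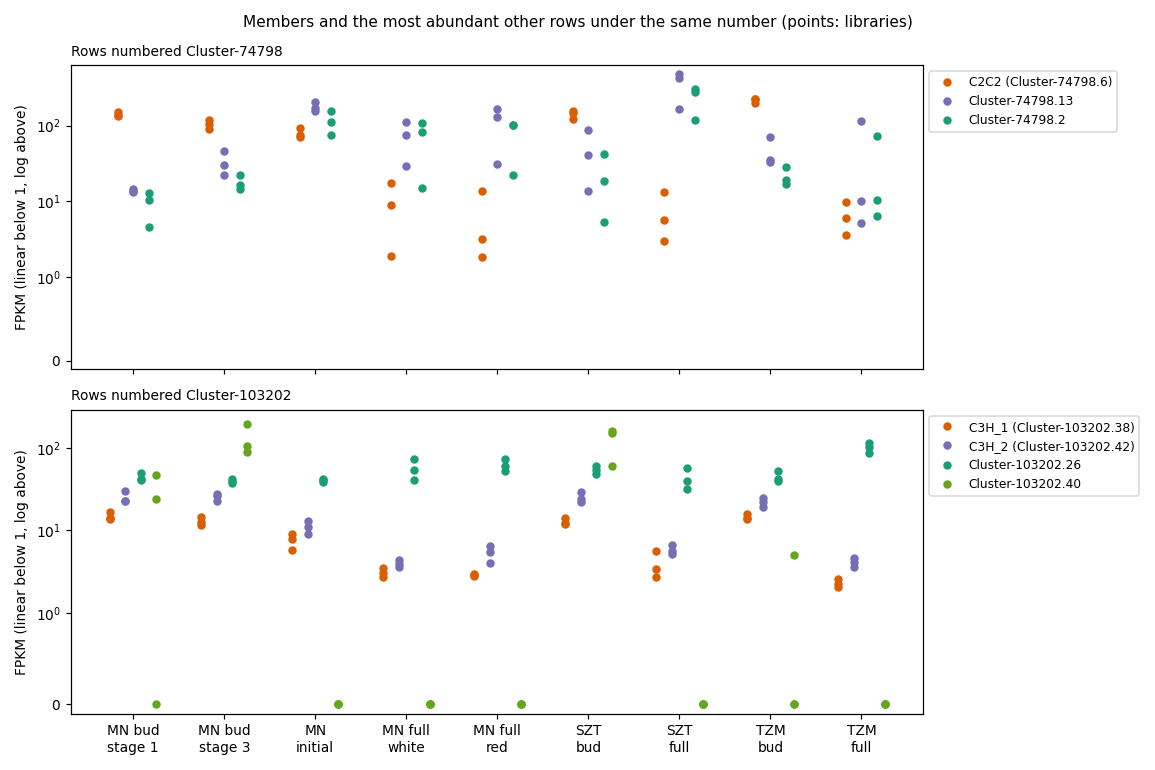
FPKM (linear below 1, logarithmic above) of the members and of the 2 most abundant other rows under Cluster-74798 and under Cluster-103202, by group. Points are libraries. Cluster-74798.13 and Cluster-74798.2 are highest in SZT at full bloom, where C2C2 is between 3.01 and 13.3, and Cluster-103202.26 is highest in TZM at full bloom.

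The C2H2 transcripts each had 1 other row under their number. Cluster-15580.1, beside C2H2_1, had 7.11, 8.92 and 9.48 FPKM at MN bud stage 3 and 1.33, 1.37 and 0.54 at initial flowering (log2 difference -2.21, adjusted p = 0.000277, limma), and its means in SZT and TZM lay between 0.893 and 1.68. C2H2_1 had means of 9.18 FPKM in SZT buds and 7.98 in TZM buds. At full bloom it made up 71.3% of the Cluster-15580 sum in SZT and 14.2% in TZM. Cluster-99976.0, beside C2H2_2, was under the filter, with a mean of 1.64 FPKM over all libraries, and was listed at 0 in all 6 TZM libraries. By group mean C2H2_2 made up 92.6% to 100% of the Cluster-99976 sum in buds and at initial flowering. In the MN white region it made up 30.4%.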

How the data were processed

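The authors trimmed reads with Trimmomatic 0.36 and assembled transcripts de novo with Trinity, and the deposited FPKM, rounded to 2 decimals, cover 225938 transcripts in 27 libraries. With the mapper, the quantifier and the reads behind each value not given in the sources used here, depth and counting precision are unknown. FPKM sums ran from 1117467 to 1320744 per library, 126900 to 148030 transcripts were above 0, and replicates correlated at 0.809 to 0.896.

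Libraries were grouped by their labels. One limma 3.58.1 fit (R 4.3.3, trend on mean level) on log2(FPKM + 1) used 9 group means and transcripts with a mean of at least 5 FPKM in at least 1 group, in 17 comparisons. Calls had a Benjamini-Hochberg adjusted p under 0.05 over all 55099 transcripts. The code was tested on simulated data. Results were recomputed with a filter at 10 or none, a pseudocount of 0.01, a stricter call, median-ratio scaling, a replicate block, fits on the compared libraries alone and leaving out each library.

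Named were all members, per member the 3 transcripts with the highest r over group means, and per cluster number the 2 most abundant other rows. Enzymes are sums of the transcripts that the study's table lists. The members and lists were chosen with earlier results of these data known. Petal markers were not checked, since rows carry no gene names, and no sequences were used here.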

Additional observations from a re-analysis of the deposited data

Results flagged for a closer look

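The fall from bud to full bloom differed between TZM and SZT for 2 of 5 members, by a test of the difference itself. The share of all transcripts was 36.4% in either direction, and the count is close to it. That share was 16.9% for a more negative change in TZM, the direction of both members. For C2H2_1 the difference of changes was -1.30 on the log2(FPKM + 1) scale (SE 0.39, adjusted p = 0.0114, limma). Over 19 alternatives its adjusted p ran from 0.00139 to 0.0369, all under 0.05, although the stricter call, which also asks for an adjusted p of at most 0.001, was not met. With a pseudocount of 0.01 the difference was -3.62, which rests on TZM full-bloom values of 0.15, 0.44 and 0.05 FPKM.

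For C3H_1 the difference of changes was -0.70 (SE 0.26, adjusted p = 0.0386, limma), with adjusted p values from 0.0108 to 0.133 over 19 alternatives. SZT full-bloom replicate 3, at 5.68 FPKM against 3.35 and 2.70 in the other replicates, moved it most, and without that library it was -0.46. Groups of 3 are too small for a test of single libraries that stand apart.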

How the results depend on the processing

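All 5 members fell from bud to full bloom in SZT and in TZM and from MN initial flowering to the white region under every alternative run, and to the red region with 1 exception, C3H_2 under the stricter call (4 of 5). The filters, the stricter call, the replicate block and the fits on the compared libraries cannot change a difference, only its call. Over 1147 single differences under an alternative, 1072 kept their side of the threshold, 69 no longer passed and 6 newly passed. Of those that passed in either fit 0 turned round, and 30 of the 1072, which passed in neither, changed sign. Under the stricter call (adjusted p at most 0.001 and log2 difference at least 1) 1 member was called for MN bud stage 3 to initial flowering and 1 for SZT to TZM at full bloom. Under it 0 were called for SZT to TZM in buds, SZT to the MN red region, TZM to either MN region, red to white petals and the difference of changes. With a pseudocount of 0.01, 2 were called for bud stage 3 to initial flowering and 0 for SZT to TZM in buds. Median-ratio scaling left 0 for SZT to TZM in buds and 1 for TZM to the MN white region. Without a filter 0 were called for SZT to TZM in buds and for TZM to the MN red region, and 1 for TZM to the white region and for the difference of changes. Fits on the compared libraries alone, in which C2H2_1 and C3H_1 and, between MN regions or between TZM and MN, also C2H2_2 were under the filter at full bloom (for TZM to the MN white region C3H_2 too, which left C2C2), called 2 for SZT to TZM in buds, 1 for TZM buds to MN bud stage 3, 1 for red to white petals and 1 for the difference of changes, and 0 for SZT to TZM at full bloom, SZT to the MN red region and TZM to either MN region. Leaving out 1 library at a time gave 3 to 4 members for bud stage 3 to initial flowering, 2 to 3 for SZT to TZM at full bloom, 0 to 1 for SZT to TZM in buds and for TZM to the MN red region, 0 to 2 for SZT to the MN red region and for TZM to the MN white region, 1 to 3 for red to white petals and 1 to 2 for the difference of changes. C3H_2 newly passed for SZT to TZM at full bloom with a pseudocount of 0.01 (adjusted p = 0.0376, limma) and with median-ratio scaling (0.0323). The replicate numbers did not pair the libraries: deviations of same-numbered libraries correlated between -0.22 and 0.15, and 6 of 27 libraries were closest to one of their own number. The replicate block changed no member's call and moved the transcripts called between the MN regions from 92 to 73. Causes were not tested. The unknown depth limits values under about 1 FPKM most, which touches C2H2_1 at full bloom.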

Other observations

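Within each full-bloom group at least 1 replicate had C2C2 and the ANR sum at opposite extremes. In the MN white region replicate 1 had the lowest C2C2 (1.86 FPKM) and the highest ANR sum (68.8 FPKM, against 3.02 and 3.88). In the MN red region this was replicate 2 (C2C2 1.85 FPKM, ANR 63.7 against 6.79 and 5.95), and in SZT replicate 1 (C2C2 3.01 FPKM, ANR 15.5 against 3.78 and 0). In TZM replicate 1 had the highest C2C2 (9.77 FPKM) and the lowest ANR sum (7.96 against 69.5 and 56.2). Between the remaining replicates both values moved together in TZM and both MN regions, and apart in SZT.

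Over all 27 libraries, with group means removed, Pearson's r of C2C2 and the ANR sum was -0.80, over the 12 full-bloom libraries -0.84 and over the other 15 it was 0.07. For the other members r with the ANR sum over the 27 libraries was -0.48 (C2H2_2), -0.39 (C3H_1), -0.37 (C2H2_1) and -0.02 (C3H_2). An r of -0.8 or lower with C2C2 was shared by 140 of 55098 transcripts (0.254%) and an r of 0.8 or higher by 265 (0.481%). Cluster-74798.13 and Cluster-74798.2 deviated with C2C2 at r of 0.62 and 0.61. The pair was chosen after its values were seen, the points share libraries, and no test is given.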
